A study of Mus musculus with 3 samples.

Results

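Glucose production and glucose use were compared in kidney cells through 8 genes of the 27998 in the count tables. They were G6pc, Pck1, Fbp1 and Pcx for gluconeogenesis, and Hk1, Hk2, Pkm and Ldha for glycolysis. The genes were found by symbol, each matching 1 row of the tables. The data came from mice treated with folic acid (FA), which injures kidney tubules, and the kidneys were taken on day 14. The Aoah-/- mice lack acyloxyacyl hydrolase in all cells, on a C57/BL6J background, and gave 2 libraries (replicates 2 and 3). A WT littermate treated in the same way gave 1 library (replicate 3). All mice were 6 to 8 weeks old, and no kidney without FA was included. Each library was made from the dissociated cells of a kidney by droplet single-cell RNA sequencing. In this assay a captured RNA molecule is counted once by its unique molecular identifier (UMI), as a single tag near the 3′ end, so levels of different genes were compared as counts per 1000000 UMIs (CPM) without division by gene length.

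Gluconeogenesis makes glucose from lactate, glutamine and glycerol, and in the kidney it takes place in proximal tubular epithelial cells (PTEC). Pyruvate carboxylase (Pcx) and phosphoenolpyruvate carboxykinase (Pck1) carry pyruvate past the irreversible last step of glycolysis, fructose bisphosphatase (Fbp1) reverses the phosphofructokinase step, and glucose 6-phosphatase (G6pc) releases free glucose. Hexokinases 1 and 2 (Hk1, Hk2), pyruvate kinase (Pkm) and lactate dehydrogenase A (Ldha) act in the other direction, and distal segments of the nephron are known to rely on glycolysis while healthy PTEC burn fatty acids.

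Pck1 lies on chromosome 2 and Hk2 on chromosome 6, and their upstream bases are shown because these genes took opposite sides in the cells described here. The bases are those of RefSeq on GRCm38.p6, at chr2:173152823-173153047 on the plus strand (225 bases) and chr6:82774455-82774704 on the minus strand (250 bases), and they end before the annotated gene start. Capitals mark ACGTCA or its reverse TGACGT, a part of the cyclic AMP response element, and ACGTG or its reverse CACGT, the core of the hypoxia response element. Both strands were searched.
Pck1: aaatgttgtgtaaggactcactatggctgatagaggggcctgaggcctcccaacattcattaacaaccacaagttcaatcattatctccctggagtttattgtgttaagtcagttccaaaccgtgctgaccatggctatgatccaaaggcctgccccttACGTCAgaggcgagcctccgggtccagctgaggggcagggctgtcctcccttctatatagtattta
Hk2: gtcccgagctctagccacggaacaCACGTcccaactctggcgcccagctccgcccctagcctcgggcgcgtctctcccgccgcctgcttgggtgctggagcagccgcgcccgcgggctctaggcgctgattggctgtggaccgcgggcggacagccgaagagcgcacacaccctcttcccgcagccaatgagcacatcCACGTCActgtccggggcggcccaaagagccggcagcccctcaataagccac
The Pck1 match to ACGTCA began 91 bases before the RefSeq start. In Hk2, the hypoxia response element core began 226 and 52 bases before the start, and the second of these overlapped a match to ACGTCA that began at 51 bases. Among all 32851 RefSeq windows of 250 upstream bases, 6.47% held ACGTCA or its reverse and 16.6% held ACGTG or its reverse. Of the other members, Ldha (2 matches to ACGTCA, 5 to ACGTG), Pcx (3 to ACGTG) and Pkm (1 to ACGTG) held matches in 1 of their 2 windows, and neither G6pc, Fbp1 nor Hk1 held any. Matches on each strand were counted apart, and some overlapped. These began 12 and 10, 145 and 144, and 48 and 47 bases before the start in Ldha, and 248 and 247 in Pcx. A match is a run of letters and was not tested as a binding site.

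After cells with few genes or over 50% mitochondrial UMIs were left out, 18202 to 21368 cells remained per library, with a median of 3357 to 3859 UMIs. The library of Aoah-/- mouse 3 stood apart, as its lowest UMI total per barcode was 1672 against 500 in the other libraries. Between 109 and 117 cell barcodes were shared by each pair of libraries, at most 0.621% of the smaller one. Aoah was at 6.75 and 6.19 CPM in the Aoah-/- libraries and at 18.2 CPM in the WT library; where its tag lies relative to the deleted part is not given in the sources used here. Classes of cells were named from marker genes of clusters built without the 8 genes, without the pathway lists below and without Aoah. PTEC-like cells held all 11 PTEC markers in every library (14522 to 15949 CPM in sum, against 1320 to 2361 CPM in distal nephron-like cells). They numbered 8236, 5139 and 9462 cells in the Aoah-/- mice (replicate 2, then replicate 3) and the WT mouse, the order used for all values below.

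The first question was where along the nephron each gene was expressed. PTEC-like cells held the gluconeogenesis genes at 6.18 to 8.67 times the level of distal nephron-like cells (ascending limb-, distal convoluted tubule-, principal- and intercalated-like cells together), whereas Hk1 and Pkm were 67.8 and 50.8 times lower in them. Hk2 was low in both, and Ldha was the glycolysis gene that PTEC-like cells did express. All 4 gluconeogenesis genes were at least 2-fold higher in PTEC-like cells in every library, as were 10.6% of the 8735 genes of at least 10 CPM, and Hk1 and Pkm were at least 2-fold lower, as were 15.3% of those genes. These are descriptions, since the classes were built from the same cells.

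Pck1 was the most abundant member in the Aoah-/- libraries and just below Fbp1 in the WT library, at 2187, 1573 and 1002 CPM in PTEC-like cells and 209.5, 250.3 and 120.4 CPM in distal nephron-like cells. Fbp1 stood at 1117, 1019.9 and 1029 CPM in PTEC-like cells and at 100.5, 167 and 109.7 CPM in distal nephron-like cells. G6pc, which acts last, reached 432, 423 and 401 CPM against 39.3, 61.4 and 46.7 CPM. No library of one class overlapped the other for these genes. Pcx was the lowest of the 4 enzymes, at 218, 206 and 204 CPM in PTEC-like cells and 29.7, 38.9 and 33.6 CPM in distal nephron-like cells. On the log2 scale the summed gluconeogenesis genes differed between the classes by 3.04 ± 0.38 (SD over the 3 libraries).

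Gluconeogenesis UMIs were also found outside PTEC-like cells. The ratio of Pck1 to Fbp1 UMIs was 1.96, 1.54 and 0.974 in PTEC-like cells, 2.08, 1.497 and 1.10 in distal nephron-like cells and 2.02, 1.20 and 0.833 in T lymphocyte-like cells, which should lack both enzymes. The libraries stood in the same order in all these classes. Other ratios shifted more, as that of Pcx to Fbp1 in the WT library was 0.198 in PTEC-like and 0.306 in distal nephron-like cells, and that of G6pc to Fbp1 in Aoah-/- mouse 3 was 0.415 in PTEC-like and 0.237 in T lymphocyte-like cells. In T lymphocyte-like cells Pck1 itself was at 182, 111 and 64.7 CPM and Fbp1 at 90.02, 92.8 and 77.7 CPM, levels that free RNA in the droplets can give. Pck1 was at 416, 366 and 174 CPM in macrophage-like cells and at 619, 553 and 197 CPM in endothelial-like cells. The levels in principal-like cells (177, 173 and 101 CPM) lay within the range of these classes and are not read as expression. Doublets were kept, clusters in the macrophage- and endothelial-like classes held all 11 PTEC markers at 2-fold, and the parts of doublets and free RNA were not tested.

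**Figure D1:**
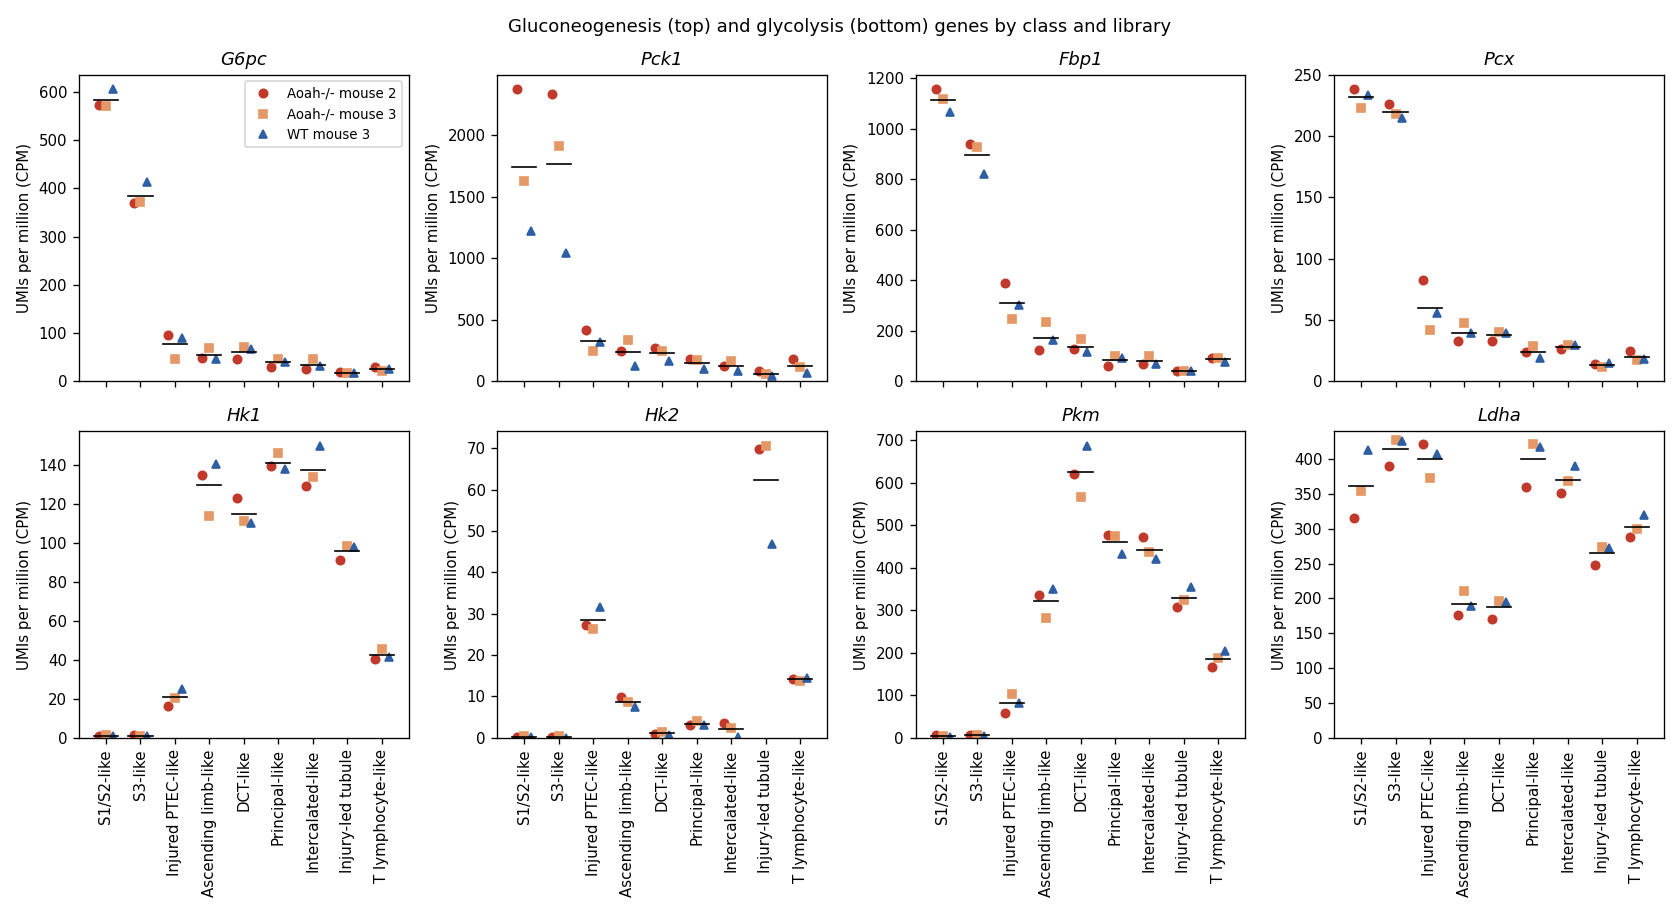
Levels of the 8 genes (vertical axes, CPM on linear scales that differ by panel) in 9 classes, with 1 point per library and a black line at the mean of the 3 libraries. The gluconeogenesis genes peak in S1/S2- and S3-like cells, Hk1 and Pkm in distal classes, and Hk2 in the injury-led tubule (47.0 to 70.6 CPM) and injured PTEC-like cells (26.4 to 31.6 CPM).

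The glycolysis genes did not share a pattern. Hk1, the housekeeping hexokinase, was at 1.97, 2.63 and 1.32 CPM in PTEC-like cells and at 131, 121 and 135 CPM in distal nephron-like cells. Its levels in principal-, intercalated- and ascending limb-like cells (means of 141, 138 and 130 CPM) overlapped between libraries, so these neighbours are not ordered. Pkm was at 9.08, 12.6 and 6.23 CPM in PTEC-like cells and at 460, 423 and 481 CPM in distal nephron-like cells. Within the distal nephron it was highest in distal convoluted tubule-like cells (621, 567 and 687 CPM), above principal-like cells (478, 476 and 432 CPM) in each library. Ldha, which interconverts pyruvate and lactate, was at 365, 401 and 457 CPM in PTEC-like cells. In distal nephron-like cells together it was at 246, 266 and 284 CPM, but the distal classes differed. Ascending limb-like (176, 210 and 189 CPM) and distal convoluted tubule-like cells (171, 196 and 194 CPM) were low. Principal-like (360, 422 and 417 CPM) and intercalated-like cells (351, 368 and 390 CPM) lay near PTEC-like cells. Because of Ldha, the summed glycolysis genes were only 2.03-fold lower in PTEC-like cells.

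Hk2, the inducible hexokinase, was at 1.53, 2.12 and 0.869 CPM in PTEC-like cells and at 5.21, 4.44 and 2.64 CPM in distal nephron-like cells. Its means over the libraries were 70.1 CPM in dendritic-like, 50.5 CPM in granulocyte-like and 46.9 CPM in macrophage-like cells. They were 14.1 CPM in T lymphocyte-like, 6.15 CPM in natural killer-like, 4.23 CPM in B lymphocyte-like and 3.97 CPM in plasmacytoid dendritic-like cells. The natural killer-like values rest on only 1, 3 and 5 UMIs and the plasmacytoid dendritic-like values on 1, 1 and 3 UMIs, so these classes are not ordered. Fibroblast-like cells ranged from 20.6 to 80.9 CPM between libraries. In the tubule it stood out in a single cluster of 441, 491 and 288 cells led by injury genes such as Clu and Lcn2. This cluster was kept out of the distal classes because 4 of its 10 leading genes were injury markers, and it held 2.06%, 2.49% and 1.58% of kept cells. Its best-scoring marker list was that of the ascending limb, at 6312, 5706 and 4419 CPM in sum, and Umod of that list was a leading gene. In ascending limb-like cells the list was at 22675, 19443.5 and 19625 CPM. In this cluster Hk2 reached 69.9, 70.6 and 47.0 CPM, 7.12 times the level of ascending limb-like cells. Hk1 (91.5, 98.5 and 97.9 CPM) was 1.35 times lower than in ascending limb-like cells. The immune marker list was at 326, 276 and 62.5 CPM in this cluster and its part in the Hk2 level was not tested; in the WT library both the list and Hk2 were lowest.

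Single PTEC-like and T lymphocyte-like cells were then compared, with cells of at least 1000 UMIs thinned to 1000 UMIs. Shares of distal nephron-like cells are not given here. Cells under this depth were left out, and Aoah-/- mouse 3, with no barcode under 1672 UMIs, had none. A Pck1 UMI was found in 74.3%, 63.3% and 50.4% of PTEC-like cells, against 14.6%, 7.78% and 4.75% of T lymphocyte-like cells. For Fbp1 the shares were 63.2%, 59.2% and 60.1% against 8.26%, 6.44% and 5.23%. Their exact Clopper-Pearson 95% intervals, which cover counting error only, did not overlap between the classes; for Pck1 in the WT library they were 49.3% to 51.5% and 3.55% to 6.22%. Hk2 UMIs were present in 0.174%, 0.214% and 0.0652% of PTEC-like cells, below the 1.34%, 1.23% and 1.05% in T lymphocyte-like cells. Hk1 gave 0.269%, 0.370% and 0.143% against 4.43%, 4.197% and 4.09%. T lymphocyte-like cells had Hk1 at 40.3, 45.7 and 41.3 CPM and Hk2 at 14.1, 13.8 and 14.4 CPM. For these genes they are not read as cells without expression. Before thinning, the PTEC-like cells had medians of 3179.5, 6325 and 4936 UMIs and a Pck1 UMI in 84.3%, 89.4% and 74.2% of cells; the T lymphocyte-like cells had medians of 2492, 2977 and 2947 UMIs.

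The next question was whether the early and late parts of the proximal tubule differed. PTEC-like cells were split into subclusters, of which a pair was S1/S2-like (2813, 2080 and 2204 cells; Slc5a2 at 499, 575 and 530 CPM) and a pair S3-like (834, 819 and 2152 cells; Slc7a13 at 674, 824 and 783 CPM). G6pc was lower in S3-like cells (370, 372 and 413 CPM) than in S1/S2-like cells (573, 570.1 and 606 CPM), 1.52-fold and in every library. Fbp1 was lower by 1.25-fold, at 937, 926 and 819 CPM against 1157, 1115 and 1064 CPM. Pck1 showed no common direction, with log2 ratios of S3-like to S1/S2-like cells of -0.02, 0.23 and -0.23, and Pcx differed by -0.08 ± 0.04 on the log2 scale. Ldha was slightly higher in S3-like cells (log2 ratios of 0.31, 0.27 and 0.04), and Hk1, Hk2 and Pkm lay at or under 6.38 CPM in both. Over the pair together, none of the members reached a 2-fold difference in all libraries, where 1.45% of 7520 genes were higher and 2.34% lower. The S3-like pair was unequal, with 3704 cells that held 3 S3 markers at 1.5-fold and 101 cells that held 9. In the latter (21, 23 and 57 cells) G6pc was at 159, 56.7 and 48.8 CPM and Pcx at 106, 102 and 73.2 CPM. Both were more than 2-fold below S1/S2-like cells in each library. Pkm, on 5, 8 and 38 UMIs, was more than 2-fold above them, and Hk1 and Hk2 gave at most 5 UMIs per library.

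The S1/S2-like cells themselves differed in Pck1. One S1/S2-like subcluster was led by immediate-early genes (Klf4, Fosb, Dusp1, Fos, Jun), which respond to stress, hormones and dissociation, and the other by Spp2 and Slc5a2. Segment markers differed too, as the S3 markers Slc22a30 and Slc7a13 had means of 277 and 190 CPM in the former and 67.3 and 13.6 CPM in the latter. Slc5a2 was lower in the former (313 against 726 CPM) and Slc5a12 higher (461 against 326 CPM). The part of segment in the differences below was not tested. Pck1 was at 3384, 2508 and 1627 CPM in the former and at 1759, 1092 and 568 CPM in the latter, 2.33-fold apart. G6pc was 1.70-fold higher in the former (776, 707 and 747 CPM against 449, 485.5 and 379.8 CPM). Fbp1 and Pcx went the other way by 1.33- and 1.36-fold. The 4 enzymes of the pathway thus did not vary together between these cells. Pck1 in S3-like cells lay between its levels in these subclusters in every library. G6pc in S3-like cells lay below both subclusters in the Aoah-/- libraries, but above the latter in the WT library. The median mitochondrial share was 13.3%, 12.5% and 13.6% in the former subcluster and 29.0%, 29.4% and 27.3% in the latter, and its part in these differences was not tested.

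A further subcluster without a segment name (765, 382 and 1365 cells), led by Cndp2 and Acaa1b and with median mitochondrial shares of 4.85%, 4.17% and 6.59%, had yet another profile. Fbp1 was highest there of all PTEC-like subclusters (1989, 1830.4 and 1853 CPM), and so was Ldha (616, 720.1 and 724 CPM). G6pc (127, 117 and 92.5 CPM) and Pcx (128, 117 and 113 CPM) were 5.24 and 1.95 times lower than in S1/S2-like cells. The mitochondrial share moves with these values and its part was not tested.

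The central comparison was between injured and other PTEC-like cells. One subcluster of 211, 328 and 143 cells was named injured PTEC-like from 12 injury markers, which summed to 19993, 16399.5 and 15609 CPM there and to 1081, 1011 and 444 CPM in the other PTEC-like cells. Its leading genes were inflammatory and injury genes (Ccl2, Vcam1, C3), while the 11 PTEC markers were all present at a sum of 5372, 4142 and 6047 CPM, below other PTEC-like cells. Havcr1, the kidney injury molecule, was at 123, 138 and 144 CPM in it. Injured PTEC-like cells had 3.56 to 5.94 times less of each gluconeogenesis gene, and 13.9 to 101 times more Hk1, Hk2 and Pkm, with the same direction in all 3 libraries. Ldha had no common direction (log2 ratio of -0.02 ± 0.21). All 4 gluconeogenesis genes were at least 2-fold lower in every library, which held for 3.63% of 8853 genes, and Hk1, Hk2 and Pkm were at least 2-fold higher, which held for 17.7% of them. The subcluster was built from these cells, without the members, so no test is given.

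Pck1 was at 416, 248 and 315 CPM in injured PTEC-like cells and at 2266, 1666 and 1018 CPM in other PTEC-like cells. G6pc was at 96.5, 45.5 and 89.0 CPM against 447, 449.6 and 408 CPM, the largest difference of the 4 enzymes (5.94-fold). No injured value reached any value of the other cells for either gene. Fbp1 (389.8, 244 and 299.8 CPM) was 3.56-fold lower and Pcx (82.5, 41.7 and 55.7 CPM) 3.75-fold lower. Pck1 in injured cells exceeded its level in T lymphocyte-like cells of the same library, but in both Aoah-/- libraries it did not exceed that in macrophage-like cells. In Aoah-/- mouse 3, G6pc, Fbp1 and Pcx were also below macrophage-like cells (107, 259 and 55.1 CPM), while in the other libraries they were above them. The macrophage-like cells were not alike between libraries. A cluster with all 11 PTEC markers at 2-fold held 148 of 2173, 1162 of 2827 and 96 of 2070 of them. The parts of this cluster and of free RNA in these levels and folds were not tested. The ratio of Pck1 to Fbp1 UMIs was 1.07, 1.01 and 1.05 in injured cells, without the spread over libraries seen in PTEC-like and T lymphocyte-like cells. The summed gluconeogenesis genes differed by -2.14 ± 0.38 on the log2 scale, and by -0.92 when cells were assigned from their own marker UMIs without clusters.

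Hk2 was at 27.2, 26.4 and 31.6 CPM in injured cells and at 0.386, 0.413 and 0.137 CPM in the others. Of the 262 Hk2 UMIs in all PTEC-like cells, 211 came from the injured subcluster. Exact Poisson 95% intervals, which cover counting error only, were 21.1 to 34.6, 21.3 to 32.5 and 23.8 to 41.1 CPM for the injured cells, so the libraries were not told apart. Hk1 was at 16.5, 20.6 and 25.3 CPM against 1.32, 1.36 and 0.753 CPM, and Pkm at 59.4, 103 and 82.7 CPM against 6.84, 6.22 and 4.41 CPM. These levels of Hk1 and Pkm remained below those of distal nephron-like cells, while Hk2 was above them.

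The immune marker list was at 262, 289.8 and 46.5 CPM in injured PTEC-like cells and at 142, 124 and 58.9 CPM in other PTEC-like cells. Injured cells without any UMI of that list (79, 112 and 95 cells) still had Hk2 at 39.2, 18.6 and 23.6 CPM, Pkm at 53.7, 90.4 and 85.2 CPM and Pck1 at 317, 209 and 233 CPM. The mitochondrial share of UMIs was 12.3%, 11.0% and 11.0% in the injured subcluster against 23.7%, 22.2% and 20.7% in all PTEC-like cells. With mitochondrial UMIs left out of the total, the summed glycolysis genes were 0.16 higher on the log2 scale in injured cells, in place of 0.36 ± 0.13.

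**Figure D2:**
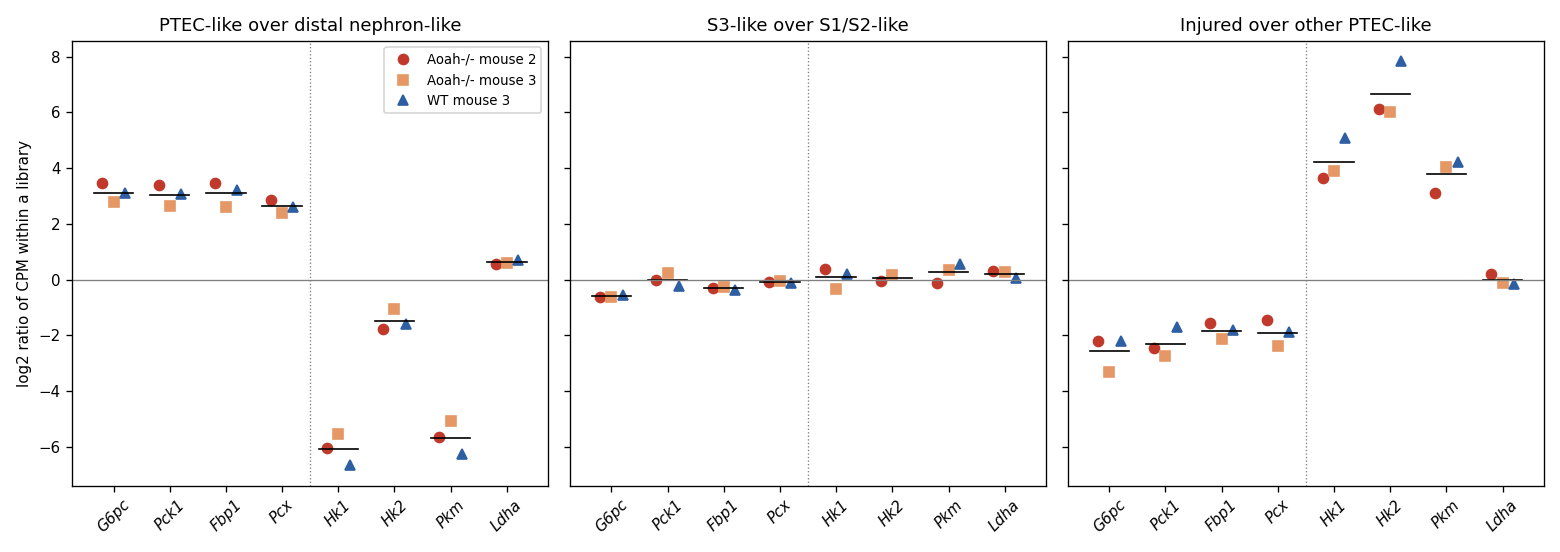
log2 ratios of CPM within each library (vertical axis) for the 8 genes in 3 comparisons of classes, with 1 point per library and a black line at their mean; a library with 0 UMIs has no point. Hk1, Hk2 and Pkm lie below 0 in the first panel and above 0 in the last, opposite to the gluconeogenesis genes, while S3- and S1/S2-like cells differ little.

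Within the injured subcluster, the cells that held an Hk2 UMI had less of the gluconeogenesis genes. These were 26, 44 and 20 cells, and their summed gluconeogenesis level was 426, 115 and 291 CPM, against 1100.2, 708 and 860.0 CPM in the injured cells without an Hk2 UMI. The direction was the same in each library. In Aoah-/- mouse 3 the cells with an Hk2 UMI had Pck1 at 46.0 CPM and Fbp1 at 43.3 CPM. These were below T lymphocyte-like cells of that library (111 and 92.8 CPM), whereas in the other libraries both genes were above them. The part of free RNA was not tested. Cells with an Hk2 UMI were deeper (medians of 16299.5, 16949 and 11615 UMIs against 9462, 6507.5 and 8316 UMIs), and the part of depth was not tested. Among other PTEC-like cells the 21, 18 and 10 cells with an Hk2 UMI were at 4492, 3493 and 3203 CPM, against 4085, 3407 and 2679 CPM in those without.

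**Figure D3:**
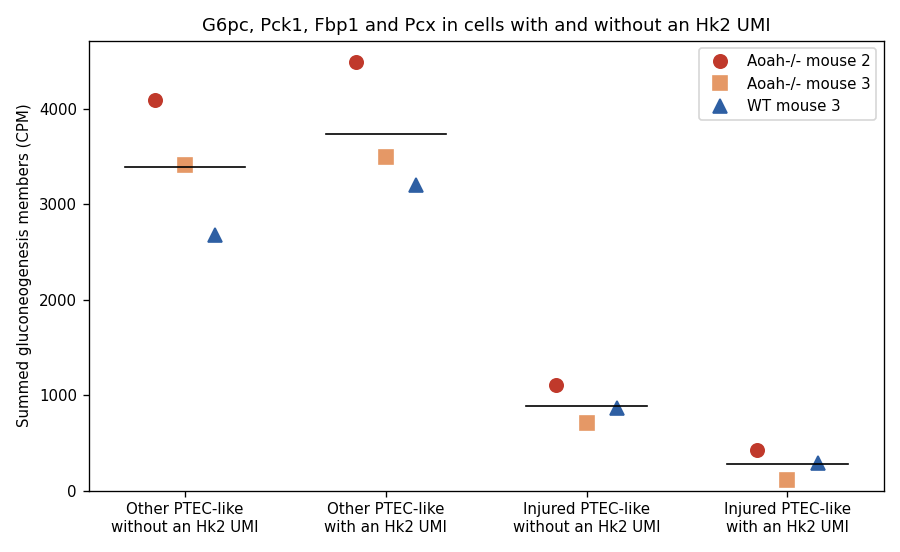
Summed level of G6pc, Pck1, Fbp1 and Pcx (vertical axis, CPM) in PTEC-like cells with and without an Hk2 UMI, with 1 point per library and a black line at their mean. Injured cells with an Hk2 UMI are lowest in each library (115 to 426 CPM), and other PTEC-like cells lie at 2679 CPM or more.

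The wider pathways showed that injured cells did not move as a whole list. Of the 17 genes of the gluconeogenesis list, all of at least 10 CPM, 4 were at least 2-fold lower in every library, beside 3.63% of all genes. These were the 4 members. Pck2, the mitochondrial carboxykinase, and Fbp2, the muscle-type bisphosphatase, were higher (log2 ratios, with 1 CPM added, of 1.96 and 1.46). These 2 of 17 are under the 17.7% of all genes that were higher and are no result about the list. The list's median was -0.46 on the log2 scale, against 0.46 for all genes compared. Of 16 glycolysis genes of at least 10 CPM, 5 were higher and none lower, namely Hk1, Hk2, Pkm, Slc2a1 (a glucose transporter) and Pfkfb3, which makes an activator of phosphofructokinase. Gapdh, Tpi1 and Aldoa, enzymes that both pathways share, stayed under 2-fold (log2 ratios of -0.31, -0.37 and 0.10). The glycolysis list's median of 0.47 was near that of all genes, and its 5 of 16 stand beside the 17.7% of all genes that were higher.

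Among the 11 precursor genes of at least 10 CPM, Slc5a8 (a lactate transporter), Gk (glycerol kinase) and Slc2a5 (a fructose transporter) were lower, with log2 ratios of -2.12, -1.13 and -1.09, and none was higher, beside 3.63% of all genes lower. Among 17 regulators, Myc (3.80), Cebpb (1.73) and Pdk4 (1.39), which restrains pyruvate oxidation, were higher, and Ppara (-1.57), a driver of fatty acid oxidation, was lower. The 3 higher regulators of 17 are at the background share of 17.7% and are no result about the list. Hnf4a, a factor that maintains PTEC identity and the most abundant regulator, was at 132, 161 and 150.5 CPM against 214, 214 and 246 CPM.

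**Figure D4:**
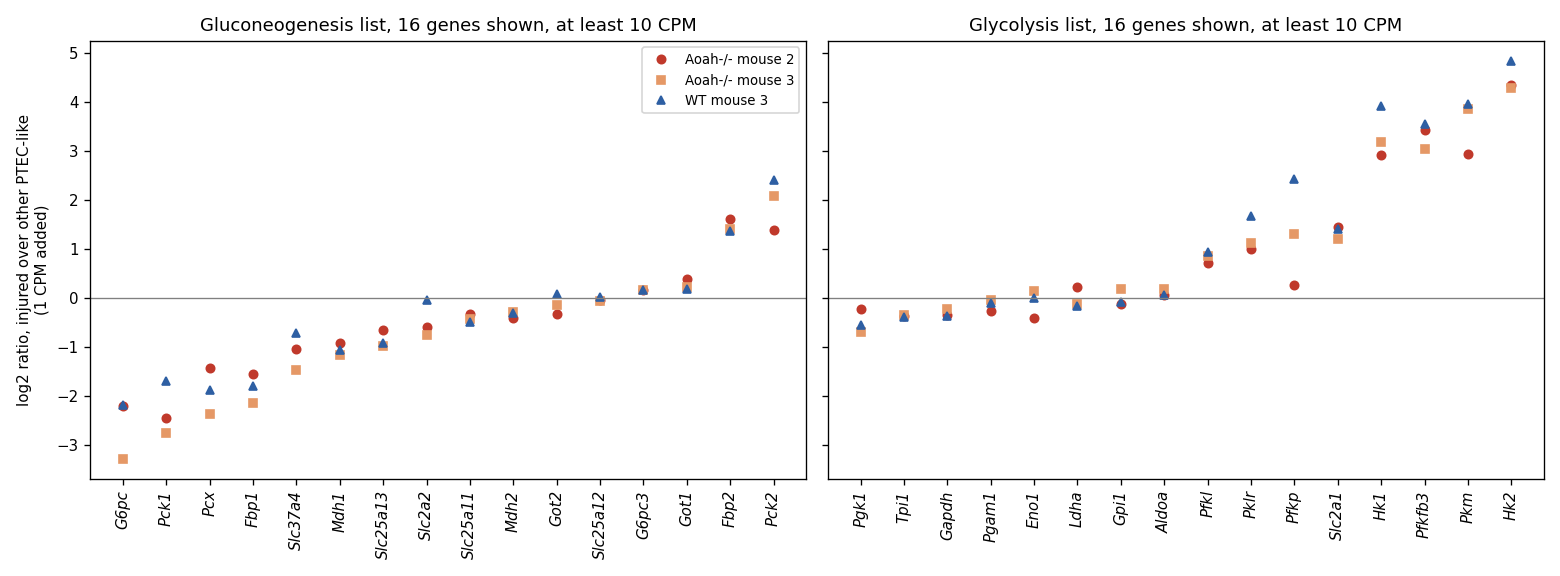
log2 ratios of injured to other PTEC-like cells, with 1 CPM added (vertical axis), for 16 genes of the gluconeogenesis list and 16 of the glycolysis list of at least 10 CPM, with 1 point per library, sorted by mean. The 4 gluconeogenesis members form the low end and Hk1, Pfkfb3, Pkm and Hk2 the high end, and most genes in between lie near 0.

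The study's design compares Aoah-/- with WT kidneys. In PTEC-like cells no member passed the threshold, but Pck1 came nearest among the gluconeogenesis genes and its level was higher in both Aoah-/- libraries. Pck1 was at 2187 and 1573 CPM in the Aoah-/- libraries and at 1002 CPM in the WT library, a log2 ratio of 0.87 in the fit, with a standard error of 0.21 (edgeR quasi-likelihood test, adjusted p = 0.0686). The remaining gluconeogenesis genes were close to equal, with log2 ratios of 0.05 for G6pc, 0.01 for Fbp1 and 0.01 for Pcx, and standard errors of 0.08 to 0.10. Hk2, Hk1 and Pkm were at 1.02, 0.75 and 0.75, with edgeR adjusted p-values of 0.117, 0.153 and 0.0792, and Ldha at -0.30 (0.0837). Thus 0 of 8 members were called by edgeR at an adjusted p of 0.05, where 4.97% of 14561 genes were called (3.12% higher, 1.85% lower). At an unadjusted p of 0.05, 5 members passed in edgeR, where 28.7% of all genes did. By DESeq2, 2 members passed before adjustment, where 1991 of 14561 genes did. After adjustment by DESeq2 0 members passed, where 412 of these genes were called higher and 224 lower. The WT library had no replicate, so the test assumed that it varied like the Aoah-/- libraries. These gave each gene 1 degree of freedom, and edgeR drew the gene's spread toward that of all genes tested. The standard errors and p-values thus do not measure a gene's own spread between mice.

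Pck1's call turned on the settings: it passed in 6 of 13 other fits, all 6 of them edgeR fits, with adjusted p-values from 4.34e-08 to 0.330 and log2 ratios from 0.77 to 1.07. In S3-like cells alone it passed edgeR's threshold (log2 ratio 1.07, adjusted p = 0.0316), where 0.464% of 11859 genes were called higher. There it was at 2337 and 1915 CPM against 1042 CPM, and in S1/S2-like cells at 2377 and 1632 CPM against 1221 CPM (edgeR adjusted p = 0.153). The difference between the segments was not tested. Each S1/S2-like subcluster was also higher in both Aoah-/- libraries. The subcluster led by immediate-early genes was at 3384 and 2508 CPM against 1627 CPM, and the other at 1759 and 1092 CPM against 568 CPM. The former held 1068 of 2813, 805 of 2080 and 1178 of 2204 S1/S2-like cells, and the part of this mix in the S1/S2-like ratio was not tested. In injured PTEC-like cells the WT value of Pck1 (315 CPM) lay between the Aoah-/- values (416 and 248 CPM). Pck1 UMIs in T lymphocyte-like cells were also lowest in the WT library, as given above.

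The share of injured cells was 2.56%, 6.38% and 1.51% of PTEC-like cells, and its part in the levels of Hk1, Hk2 and Pkm over all PTEC-like cells was not tested. Within the injured subcluster neither Hk2 nor Hk1 was higher in the Aoah-/- libraries, and the WT value of Pkm (82.7 CPM) lay between the Aoah-/- values (59.4 and 103 CPM). In other PTEC-like cells all 3 genes were higher in both Aoah-/- libraries. Pkm was at 6.84 and 6.22 CPM there against 4.41 CPM, Hk1 at 1.32 and 1.36 CPM against 0.753 CPM, and Hk2 at 0.386 and 0.413 CPM against 0.137 CPM, on 21, 20 and 10 UMIs. Over all kept cells the 3 genes were lowest in the WT library too. Pkm was at 187, 175 and 118 CPM, Hk1 at 37.8, 40.4 and 25.6 CPM and Hk2 at 15.8, 14.6 and 9.50 CPM. PTEC-like cells, low in these genes, were 38.5%, 26.1% and 52.0% of kept cells, and the part of this mix was not tested. In distal nephron-like cells the WT library was highest for Hk1 (131, 121 and 135 CPM) and Pkm (460, 423 and 481 CPM). Hk2 was lowest in the WT library there (5.21, 4.44 and 2.64 CPM). The immune marker list in other PTEC-like cells was also lowest in the WT library (142, 124 and 58.9 CPM). The parts of free RNA and doublets in these low levels were not tested. In S1/S2-like cells Pkm was at 6.06 and 5.004 CPM against 2.77 CPM, while Hk2 was at 0.242 and 0.331 CPM against 0.256 CPM, on 6 to 8 UMIs per library. In S3-like cells the WT library held 0 Hk2 UMIs, against a floor of 3 UMIs, or 0.0988 CPM (exact Poisson 95% upper limit 0.121 CPM). The low-depth barcodes missing from Aoah-/- mouse 3 enter the denominator of these shares. The log2 ratio of the summed gluconeogenesis genes in PTEC-like cells was 0.45 ± 0.21 (SD between the Aoah-/- libraries), and that of the glycolysis genes -0.23 ± 0.10. Neither sum stands for all its members. In the fit Pck1 was at 0.87, against 0.05 for G6pc and 0.01 for Fbp1 and Pcx. Ldha, at -0.30, held 408 of the 420 CPM of the glycolysis sum (means over the libraries). Hk1, Hk2 and Pkm went the other way (0.75, 1.02 and 0.75).

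**Figure D5:**
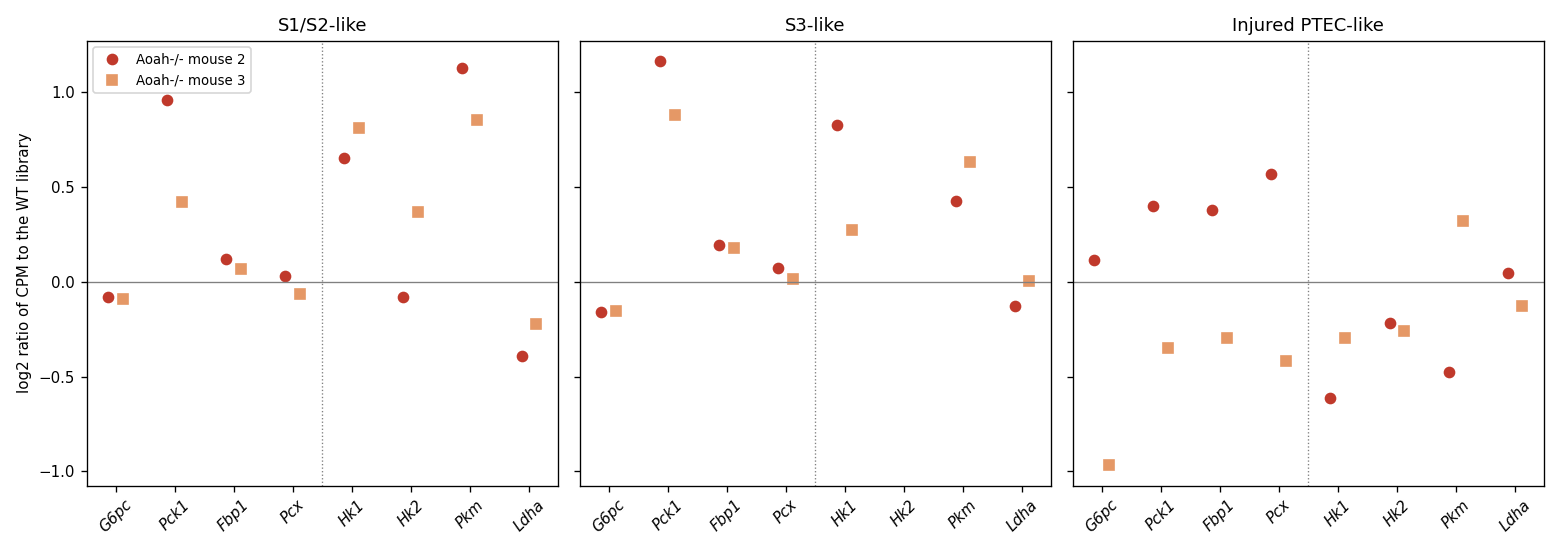
log2 ratios of CPM in each Aoah-/- library to the WT library (vertical axis) for the 8 genes in S1/S2-like, S3-like and injured PTEC-like cells, with 1 point per Aoah-/- library; ratios to 0 WT UMIs have no point. Pck1 lies above 0 in both segments and on both sides of 0 in injured cells, whereas G6pc, Fbp1 and Pcx stay near 0 in the segments.

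Calls between the genotypes over the pathway lists are read beside the 4.97% of all genes called. Of 17 gluconeogenesis genes tested by edgeR, 0 passed an adjusted p of 0.05. Of 24 glycolysis genes, Pfkp, the platelet-type phosphofructokinase, rose (log2 ratio 1.72, at 7.49 CPM in the WT library and at 31.4 and 19.3 CPM in the Aoah-/- libraries) and Eno1 (enolase) fell by 0.42. Of 12 precursor genes 4 were called, where Slc16a1, a lactate transporter, and Slc38a3, a glutamine transporter, rose (0.66 and 1.27), and Khk (ketohexokinase) and Glyctk (glycerate kinase), both of fructose metabolism, fell by 0.41 and 0.47. Of 20 regulators, Irs2, an adaptor of the insulin receptor, rose (1.23), a count of 1 that is near the background share. The medians of the lists were between 0.01 and 0.16, against 0.01 for all genes. A further fit left out 3 PTEC-like subclusters led by genes of blood cells or other classes, 2 of them of few UMIs (medians of 836 and 948). In that fit 2 genes in all passed the threshold, and Pck1 was at 0.87 (edgeR adjusted p = 0.112).

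The genes most like each member except G6pc and Pkm were sought over 57 points, each a class in a library with at least 50 cells. The search covered 7517 genes by Pearson's r of log2(CPM + 10). Points share libraries and free RNA, so r is a description. Pck1 was most like Keg1 (0.97), Aass (0.96) and Ttr (0.95), Fbp1 most like Hgd, Slc34a1 and Ugt2b38 (all 0.98), and Pcx most like Cubn (0.96), Paqr9 (0.96) and Lrp2 (0.95). Lrp2 and Cubn are the endocytic receptors and Slc34a1 the phosphate transporter of PTEC. Lrp2, Cubn, Slc34a1 and Keg1 were among the 11 PTEC markers that named the classes, so their likeness is not independent of the naming. Hk1 was most like Stk39 (0.90), Pdk1 (0.90) and Acsl5 (0.88). Hk2 was most like Nfkbiz (0.87), Creb5 (0.83) and Anxa1 (0.81). Of the members searched, Ldha had the weakest likeness, with Rer1 (0.76), Sptlc2 (0.65) and St13 (0.65).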

How the data were processed

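Droplet single-cell RNA-seq was analysed for 3 kidney libraries (2 Aoah-/-, 1 WT). The authors deposited UMI counts per gene and barcode, one matrix per library, aligned to mm10. The submitters' processing notes name Cell Ranger 3.1.0, STAR and Seurat 4.2.0, while the matrix headers name Cell Ranger 6.1.2. Barcodes under 200 genes or over 50% mitochondrial UMIs were dropped. Cells were clustered with scanpy 1.11.5 and igraph 0.11.9 (Python 3.11.15; 2000 variable genes, 50 components, resolution 1; subclusters of PTEC-like cells at 0.5), without the 8 genes, the pathway lists or Aoah. Doublets were not called and were kept. Clusters were named "-like" from marker lists, with naming thresholds set after the data were seen.

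UMIs were summed per library and class. Genotypes were compared with edgeR 4.0.16 (R 4.3.3), the quasi-likelihood test on counts with Benjamini-Hochberg adjustment over all genes tested, and with DESeq2 1.42.0 as an alternative. The edgeR script was checked on simulated data. With 1 WT library, only the 2 Aoah-/- libraries give a spread within a genotype. In edgeR this spread was drawn toward that of all genes tested, so p-values do not rest on a gene's own spread alone. Comparisons of classes are within-library log2 ratios with no test. Intervals (exact Poisson, exact Clopper-Pearson) cover counting error only. Upstream sequences were from RefSeq, GRCm38.p6.

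The members and lists were chosen with earlier results of these data known. All 8 genes are named. Of each pathway list, the rule named the 3 genes highest in PTEC-like cells and those past an adjusted p of 0.05; others named were chosen after their values were seen. The values of 1 gene of these lists are not reported here. The alternatives changed filters, resolution, class assignment, normalization, denominator and thinning. Leaving out subclusters and taking S1/S2- or S3-like cells alone were added after seeing the data.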

Additional observations from a re-analysis of the deposited data

Results flagged for a closer look

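Hk1 stood on opposite sides of the WT library in different PTEC-like cells. The log2 ratio of the mean Aoah-/- CPM to the WT CPM was 0.73 in S1/S2-like cells, 0.58 in S3-like cells and -0.45 in injured PTEC-like cells. Both Aoah-/- libraries were above the WT library in the segments and below it in the injured cells. Exact Poisson intervals, which cover counting error only, overlapped between the WT library and each Aoah-/- library in all these cells. In S1/S2-like cells they were 0.729 to 1.52, 0.803 to 1.72 and 0.390 to 1.11 CPM. In S3-like cells they were 0.831 to 2.22, 0.508 to 1.63 and 0.506 to 1.18 CPM. In injured cells they were 11.8 to 22.5, 16.0 to 26.0 and 18.4 to 33.9 CPM. The libraries were thus not told apart. The difference between these cells and the part of free RNA were not tested. The values rest on 31, 29 and 16 UMIs in S1/S2-like cells, 18, 13 and 24 UMIs in S3-like cells and 40, 70 and 44 UMIs in injured cells, in the order Aoah-/- mouse 2, Aoah-/- mouse 3, WT mouse.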

How the results depend on the processing

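Without a WT replicate, only the 2 Aoah-/- libraries give a spread within a genotype, and Hk1, Hk2 and Pkm rest on few UMIs in PTEC-like cells. No paired analysis was possible because the genotypes share only replicate number 3. Ratios below are log2, and the cause of each change was not tested. Between genotypes, Pck1 passed the threshold in edgeR with at most 20% mitochondrial UMIs (0.77), at least 1700 UMIs (0.87), no cell with an immune marker UMI (0.89), a denominator without mitochondrial UMIs (0.86), DESeq2 size factors (0.87) and S3-like cells alone (1.07). Pkm passed with at most 20% mitochondrial UMIs (1.12), classes assigned cell by cell (0.78) and no immune marker UMI (0.75). The members called were 2, 1, 1, 2, 1, 1 and 1 with at most 20% mitochondrial UMIs, at least 1700 UMIs, cell by cell classes, no immune marker UMI, no mitochondrial denominator, DESeq2 size factors and S3-like cells alone, in place of 0. Near-zero ratios turned sign: G6pc was -0.088 with at most 20% mitochondrial UMIs, -0.014 in S1/S2-like and -0.12 in S3-like cells, Fbp1 was -0.17 with at most 20% mitochondrial UMIs and -0.0049 without a low-count filter, and Pcx was -0.17 and -0.0056. As a mean over cells, G6pc was 0.28 and Pcx 0.12. The background to the members called also changed with the setting. The 724 of 14561 genes called became 1120 of 13767 (at most 20% mitochondrial UMIs) and 1125 of 14508 (at least 1700 UMIs). They became 1397 of 12783 (no immune marker UMI) and 112 of 19410 (no filter). In S1/S2-like cells they were 124 of 12942, in S3-like cells 100 of 11859, and without 3 subclusters 2 of 14408. Higher and lower genes were 335 and 167 of 14213 with cell by cell classes. They were 629 and 431 of 14548 without a mitochondrial denominator, and 647 and 418 of 14561 with DESeq2 size factors.

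For classes, the summed gluconeogenesis ratio of PTEC-like to distal nephron-like cells was 3.58 at resolution 2, and that of injured to other PTEC-like cells -0.92 cell by cell. The summed glycolysis ratio was -0.87 as a mean over cells for PTEC-like to distal nephron-like cells. For S3-like to S1/S2-like cells it was 0.38 cell by cell and -0.0068 as a mean over cells. For injured to other cells it was 0.20 (at most 20% mitochondrial UMIs), 0.16 (no mitochondrial denominator) and 0.16 (mean over cells). The mean share of PTEC-like cells with a UMI depended on depth, and at 2000 UMIs and unthinned was 44.3% and 58.5% for G6pc, 80.6% and 82.6% for Pck1, 80.5% and 86.3% for Fbp1, 31.0% and 53.5% for Pcx, 0.400% and 1.48% for Hk1, 1.84% and 5.60% for Pkm, 52.0% and 70.3% for Ldha and, unthinned, 0.698% for Hk2. With at most 20% mitochondrial UMIs it was 65.3% (Fbp1), 14.6% (Pcx), 0.388% (Hk1), 0.302% (Hk2) and 36.5% (Ldha), and Hk2 was 0.0466% cell by cell and 0.0552% without immune marker UMIs. Leaving out a library in turn, the genotype ratio ran from 0.65 to 1.13 for Pck1 and from -0.01 to 0.12 for Fbp1, and the summed gluconeogenesis ratio of injured to other PTEC-like cells from -2.19 to -1.94.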
